A study of Mus musculus with 10 samples.

Results

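Genes for 10 proteins that regulatory T cells (Treg) secrete or display as ligands were followed from control to Tfam knockout (KO) Treg: Il10, Ebi3, Fgl2, Areg, Penk, Clcf1, Ifng, Lta, Tnfsf11 and Tnfsf14. These 10 genes, of 22553 in the count table and 11990 tested, were chosen by name as suppressive, repair and helper-type ligands from results of KO against control in these same libraries, that is, with their fold changes known. Their fold changes and calls in that contrast are therefore given as a description, with no independent test of the list.

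YFP-positive Treg were sorted from lymph nodes and spleen of C57BL/6 littermates, all female, and their poly(A) RNA gave 3 control and 3 KO libraries. Control mice were Tfamfl/+Foxp3Yfp-Cre/+ and KO mice Tfamfl/flFoxp3Yfp-Cre/+, so both groups carried 1 Foxp3-driven YFP-Cre allele and at least 1 floxed Tfam allele, and control cells also lose a Tfam copy where Cre acts. Foxp3 is X-linked, so females with 1 Cre allele also hold Treg without Cre, which the YFP gate leaves out. Each library pooled cells of 2 to 3 mice, and the labels give no age. They do not say whether the pools were independent in litter or day, so the p-values measure only the variation among pools, part of which may be technical. TFAM packages mitochondrial DNA and is needed for its transcription, and the series asks how Treg depend on it.

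Treg restrain other immune cells in part through what they release. IL-10 acts on myeloid cells and T cells through a receptor that signals by STAT3, EBI3 is the shared chain of IL-27 and IL-35, and FGL2 is a secreted fibrinogen-like protein that binds inhibitory Fc receptors. Amphiregulin (Areg) is an EGF receptor ligand linked to tissue repair by Treg, and Penk encodes the precursor of enkephalin opioid peptides. CLCF1 is an IL-6 family cytokine, IFN-gamma (Ifng) is the defining cytokine of type 1 helper cells, and lymphotoxin alpha (Lta), RANKL (Tnfsf11) and LIGHT (Tnfsf14) are TNF superfamily ligands.

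The promoters of the 4 members that were called lower in KO without the replicate number as a block and have an entry in the RefSeq table (build GRCm38.p6) are shown because those genes moved in the same direction. Of the 10 members, 7 matched an entry (all but Il10, Penk and Clcf1). Each run holds 250 bases before and 50 after the start site, 5′ to 3′ on the gene's strand, and capitals mark every match to a motif searched.
Fgl2, chr5:21372423-21372722, strand +: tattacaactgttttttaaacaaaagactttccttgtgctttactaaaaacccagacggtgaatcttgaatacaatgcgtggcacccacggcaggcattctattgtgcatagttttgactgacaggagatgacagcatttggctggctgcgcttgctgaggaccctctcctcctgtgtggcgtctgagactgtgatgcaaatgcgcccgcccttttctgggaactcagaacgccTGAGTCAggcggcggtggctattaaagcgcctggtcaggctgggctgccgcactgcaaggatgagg
Ifng, chr10:118440796-118441095, strand +: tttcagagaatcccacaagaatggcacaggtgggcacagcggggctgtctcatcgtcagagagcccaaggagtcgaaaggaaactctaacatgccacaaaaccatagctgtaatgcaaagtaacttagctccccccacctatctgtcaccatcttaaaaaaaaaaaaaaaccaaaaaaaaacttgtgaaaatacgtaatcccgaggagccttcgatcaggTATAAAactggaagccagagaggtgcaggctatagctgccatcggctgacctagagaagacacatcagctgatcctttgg
Tnfsf11, chr14:78307994-78308293, strand -: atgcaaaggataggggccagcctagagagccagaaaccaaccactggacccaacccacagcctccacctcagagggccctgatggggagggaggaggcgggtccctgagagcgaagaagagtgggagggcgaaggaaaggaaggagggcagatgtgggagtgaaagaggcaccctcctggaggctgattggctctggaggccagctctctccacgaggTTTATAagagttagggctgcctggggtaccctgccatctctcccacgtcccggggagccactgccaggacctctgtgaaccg
Tnfsf14, chr17:57194132-57194431, strand -: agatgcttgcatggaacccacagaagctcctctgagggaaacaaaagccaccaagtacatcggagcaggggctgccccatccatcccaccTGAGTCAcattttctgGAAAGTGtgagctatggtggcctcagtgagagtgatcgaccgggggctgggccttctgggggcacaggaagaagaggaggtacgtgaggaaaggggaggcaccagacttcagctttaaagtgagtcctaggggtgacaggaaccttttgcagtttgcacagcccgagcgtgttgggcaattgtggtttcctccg

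Each motif was searched on both strands. The AP-1 and BATF motif was spelled TGANTCA and the T-box motif GGTGTG. For MAF the letters were TGCTGAC, and for NFIL3 they were TTANNTAA. The PRDM1 core was spelled GAAAGTG and the TATA box TATAAA. Apart from the TATA box, these are motifs of the factors called lower in these data (Batf, Tbx21, Maf, Nfil3 and Prdm1). Motifs of other listed factors, such as Gata3, Runx3 and Stat3, were not searched, so matches are not independent of the calls. No 2 matches overlapped in these 4 promoters. TGAGTCA, a form of the AP-1 and BATF motif, begins 16 bases before the Fgl2 start and 160 bases before the Tnfsf14 start, and 7.81% of the 32851 promoters in the table hold that motif. The Tnfsf14 promoter also holds GAAAGTG, beginning 144 bases before the start, a motif found in 4.81% of promoters. TATAAA begins 30 bases before the Ifng start, and its reverse complement TTTATA 32 bases before that of Tnfsf11, against 13.6% of promoters with either. T-box, MAF and NFIL3 letters were in none of the 7 member promoters, and were in 19.0%, 4.67% and 6.00% of all promoters. A match describes the letters in this window and is not a binding site.

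The libraries held between 19087757 and 27490253 counts. Levels below are CPM (counts scaled to a common library size), normalised by TMM, which corrects for differences in composition between libraries, and 1 count equals 0.0365 CPM in the deepest library and 0.0525 CPM in the shallowest. Tfam, which checks the labels, was lower in each KO library (14.4 to 16.5 CPM) than in each control library (25.9 to 42.4 CPM). Foxp3, the lineage transcription factor, stood at 688 to 853 CPM in controls and 783 to 873 CPM in KO, and 0 of 7 Treg markers were called; with the replicate number as a block, Ctla4, an inhibitory receptor, was lower (-0.22 ± 0.06, adjusted p = 0.0432). The 14 macrophage and monocyte markers summed to 463, 1022 and 553 CPM in control pools 1 to 3 and 617, 1481 and 546 CPM in KO pools 1 to 3, so the libraries numbered 2 stood apart in both groups. For this reason results are also given without both libraries numbered 2, a choice made after seeing the data. Of 5 tested B cell markers 1, Ighm, was lower (-0.47, adjusted p = 0.0134), of 4 tested dendritic cell markers 0 were called, and the 6 neutrophil markers summed to at most 0.506 CPM. Among the Treg, macrophage and dendritic cell markers, 0 had an unadjusted edgeR p under 0.05.

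Of the 10 members, 6 were called lower in KO and 1 higher by edgeR at an adjusted p under 0.05, against 1.39% of all tested genes called lower and 0.1% called higher. Il10, Fgl2, Ifng, Penk, Tnfsf14 and Tnfsf11 were the 6 lower genes, Clcf1 was the higher one, and Ebi3, Areg and Lta did not pass. All 10 passed the filter on low counts. Il10 did so on its control libraries, since KO pools 2 and 3 held 1 and 4 counts, under the minimum count of 10. With the replicate number as a block, Ebi3 and Areg were also called lower, so that 8 members were lower and 1 higher, where 4.39% and 1.97% of all genes were called lower and higher in that fit. The 2 groups did not overlap for 8 of the 10 members, against 19.1% of all tested genes. The members' median log2 fold change was -1.21, and that of all tested genes was -0.005. The members were chosen from results of this same contrast, so nothing is read from these shares. In bulk libraries, fewer cells of a type and less RNA per cell cannot be told apart. The number of lower members was 2 (Fgl2 and Penk) without control pool 1, control pool 2, KO pool 1 or KO pool 3, and also without both libraries numbered 2.

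**Figure D1:**
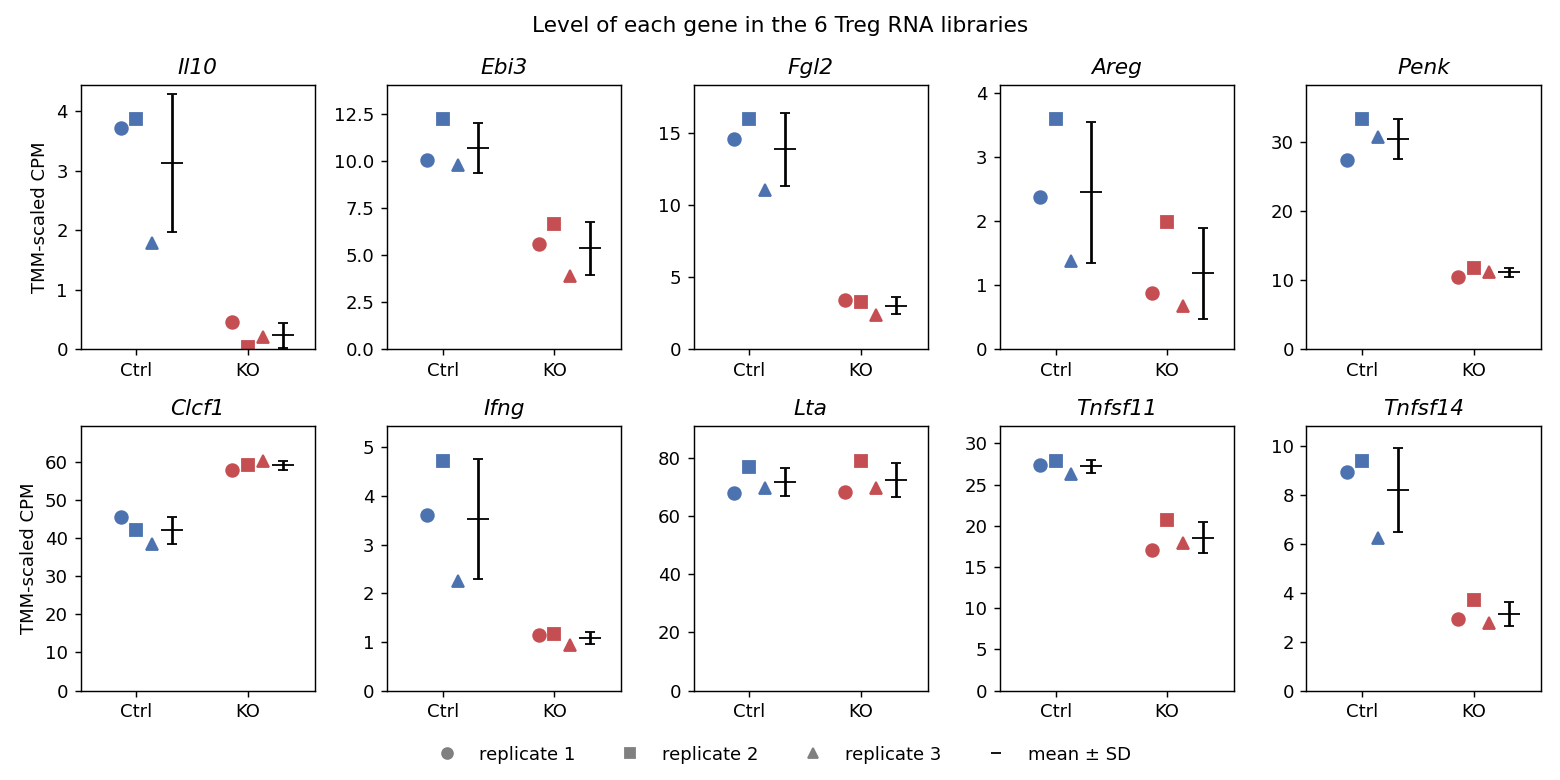
TMM-scaled CPM (y axis, from 0, a scale of its own per gene) of the 10 genes in the 3 control (blue) and 3 KO (red) libraries; symbols give the replicate number and black bars the mean ± SD. The groups are apart for every gene but Areg and Lta, and Clcf1 is the one gene with all KO libraries above all control libraries.

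Il10 (ENSMUSG00000016529) had the largest fitted fall of the 10 members. It was counted 97, 85 and 49 times in control pools 1 to 3 and 11, 1 and 4 times in KO pools 1 to 3. In CPM these were 3.73, 3.86 and 1.79 against 0.464, 0.0487 and 0.210. Every control library lay above every KO library, and KO pool 1 held most of the KO counts. Its fitted log2 fold change (log2 FC), KO against control, was -3.61 ± 0.56 (SE, adjusted p = 0.0186), and the depth-scaled ratio of summed counts was 12.1, with an exact 95% interval of 7.30 to 21.6 that covers counting error only. No call was left on omitting control pool 1 (adjusted p = 0.0732), control pool 2 (0.0627), KO pool 1 (0.0538), KO pool 2 (0.0586), KO pool 3 (0.0968) or both libraries numbered 2 (0.0838), and the log2 FC then lay between -4.56 and -2.97. With the replicate block it was -3.64 ± 0.39 (adjusted p = 0.000189).

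Fgl2 (ENSMUSG00000039899) fell from 14.6, 16.0 and 11.1 CPM in control pools 1 to 3 to 3.46, 3.31 and 2.36 CPM in KO pools 1 to 3. Every control library stood well above every KO library. The mean was 13.9 ± 2.52 CPM in controls and 3.04 ± 0.60 CPM in KO (SD, n = 3 each), a log2 FC of -2.18 ± 0.20 (SE, adjusted p = 0.00196). Fgl2 was called in all 13 alternative fits, at log2 FCs between -2.32 and -2.03, and within same-numbered pairs 1 to 3 the log2 difference, KO minus control, was -2.08, -2.27 and -2.23. Macrophages also express Fgl2 widely. Of the 14 macrophage markers, 14 had a fitted value above 0, 0 were called without the block, and 6 were called higher with it. Without both libraries numbered 2, where the macrophage marker sums were 463 and 553 CPM against 617 and 546 CPM, the log2 FC of Fgl2 was -2.12 (adjusted p = 0.0154). The part of macrophages in the Fgl2 values was not tested. The gene span of Ccdc146 overlaps Fgl2, and Ccdc146 itself had 15 counts over the control and 20 over the KO libraries.

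Penk (ENSMUSG00000045573) was the member with the smallest p, rank 3 of all tested genes. Its level was 27.4, 33.2 and 30.7 CPM in controls and 10.5, 11.8 and 11.1 CPM in KO. The KO libraries lay close together and all below the controls. The log2 FC was -1.45 ± 0.10 (SE, adjusted p = 0.00114), and it stayed called in all 13 alternatives, between -1.51 and -1.39. The 3 pairs gave -1.39, -1.50 and -1.46. Of the enzymes that cut proenkephalin into enkephalins, the prohormone convertases Pcsk1 and Pcsk2 were at 18 and 0 counts over all libraries, and the carboxypeptidase Cpe stood at 4.35 CPM in controls and 2.55 CPM in KO (log2 FC -0.77 ± 0.18, adjusted p = 0.102). Cpe was called lower with the replicate block (adjusted p = 0.0229). Pcsk1, Pcsk2 and Cpe were named for this role after their values were seen.

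Ebi3 (ENSMUSG00000003206) stood at 10.1, 12.2 and 9.82 CPM in controls and 5.61, 6.67 and 3.88 CPM in KO. All control libraries lay above all KO libraries, but the log2 FC of -0.98 ± 0.20 just missed the threshold (adjusted p = 0.0547), while Ifng at 0.0377 was the last member to pass it. With the replicate block Ebi3 was called lower (-1.001 ± 0.134, adjusted p = 0.000878). DESeq2 and the fit of unfiltered counts also called it. The partner chains of EBI3 were nearly absent: Il12a, the other chain of IL-35, had 1 count over all 6 libraries, and Il27, which encodes the p28 chain of IL-27, had 19. The span of Zfp119b overlaps Ebi3, and Zfp119b stood at 4.48 CPM in controls and 4.79 CPM in KO.

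Areg (ENSMUSG00000029378) was 1 of the 2 members whose groups overlapped. Its level was 2.38, 3.59 and 1.39 CPM in controls and 0.886, 2.00 and 0.682 CPM in KO, from 179 and 75 counts in all. KO pool 2 lay above control pool 3. The log2 FC of -1.03 ± 0.46 did not pass (adjusted p = 0.407). Each KO library was below the control of the same number, with log2 differences of -1.43, -0.85 and -1.02, and with the replicate block Areg was called lower (-1.08 ± 0.23, adjusted p = 0.0184). Basophils and mast cells can also make amphiregulin; their 6 markers summed to 2.54 to 3.51 CPM in controls and 2.87 to 3.50 CPM in KO. Most of that sum came from Kit (292 counts over all libraries, log2 FC 0.03 ± 0.20, adjusted p = 0.968) and Cpa3 (110 counts, 0.55 ± 0.38, adjusted p = 0.598), while Gata2 had 12 counts, Mcpt8 2, Ms4a2 1 and Fcer1a 0. The part of such cells in the Areg values was not tested.

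Clcf1 (ENSMUSG00000040663) was the one member that rose. It stood at 45.5, 42.0 and 38.5 CPM in controls and 57.8, 59.1 and 60.2 CPM in KO, with no overlap. The change was 1.41-fold, a log2 FC of 0.49 ± 0.08 (SE, adjusted p = 0.0200). It kept its direction in all 13 alternatives, between 0.43 and 0.56, but the call did not survive omission of control pool 2 (adjusted p = 0.0894), KO pool 1 (0.116), KO pool 2 (0.0913), KO pool 3 (0.0898) or both libraries numbered 2 (0.213). The gene also overlaps lncRNA genes in the RefSeq annotation. The receptor chains Cntfr and Lifr had 3 and 12 counts over all libraries. The shared signalling chain Il6st was at 264 to 287 CPM in controls and 281 to 317 CPM in KO (log2 FC 0.14 ± 0.07, adjusted p = 0.453).

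**Figure D2:**
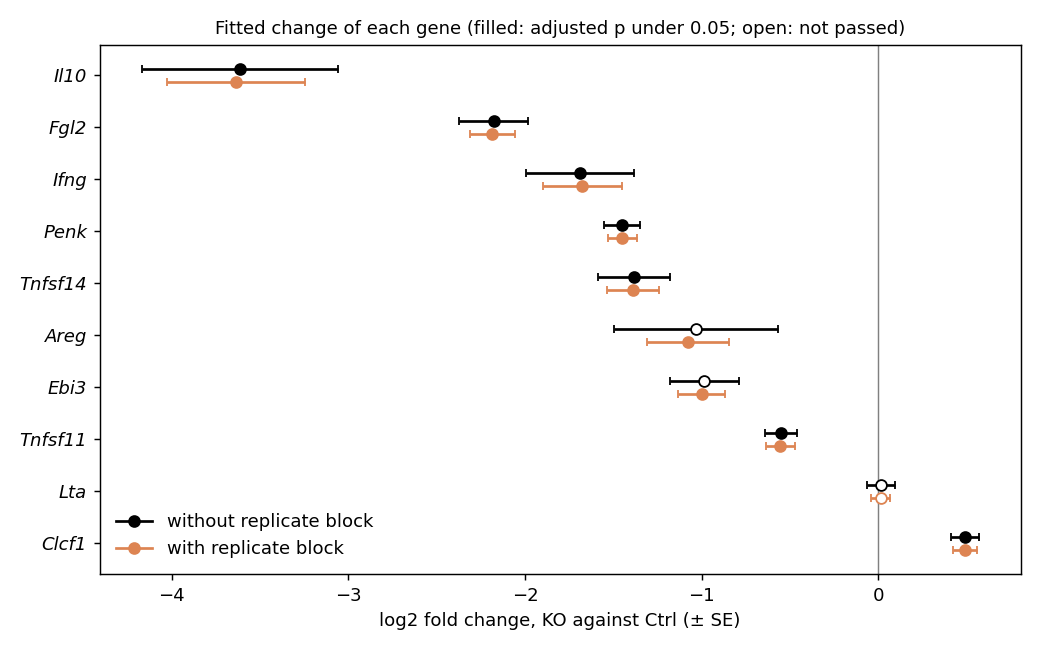
Fitted log2 FC, KO against control (x axis, ± SE), of the 10 genes without (black) and with (orange) the replicate number as a block; filled points have an adjusted p under 0.05. The values with and without the block nearly coincide, from -3.61 for Il10 to 0.49 for Clcf1, and Ebi3 and Areg turn from open to filled with it.

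Ifng (ENSMUSG00000055170) was counted 94, 104 and 62 times in control and 27, 24 and 18 times in KO. Its level was 3.61, 4.73 and 2.26 CPM against 1.14, 1.17 and 0.944 CPM. The KO libraries were close together and all below the controls. The log2 FC was -1.69 ± 0.31 (SE, adjusted p = 0.0377). It was lost without control pool 1 (adjusted p = 0.103), control pool 2 (0.115), KO pool 1 (0.181), KO pool 2 (0.125), KO pool 3 (0.154) or both libraries numbered 2 (0.197), and by limma-voom (0.0867). With the block it was -1.68 ± 0.22 (adjusted p = 0.000835). Natural killer and CD8 T cells are major producers of Ifng. The 7 natural killer and innate lymphoid markers summed to 29.8 to 35.5 CPM in controls and 16.3 to 18.0 CPM in KO. Of the 3 tested, Nkg7 and Il1rl1, which effector Treg also express, were called lower, and Eomes stood at 3.56 CPM in controls and 4.43 CPM in KO (log2 FC 0.31 ± 0.23, adjusted p = 0.621). The other 4 had few counts over all libraries, with 5 for Ncr1, 12 for Klrb1c, 5 for Klre1 and 48 for Klrk1. Cd8a stood at 0.657 to 3.18 CPM in controls and 1.05 to 2.97 CPM in KO, Cd8b1 at a mean of 13.2 CPM in controls and 14.6 CPM in KO, and of 4 CD8 T cell markers 3 were tested and 0 called by edgeR, with or without the block, and 0 had an unadjusted p under 0.05. The part of such cells in the Ifng result was not tested.

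Among the TNF superfamily ligands, Tnfsf14 (ENSMUSG00000005824) fell from 8.95, 9.41 and 6.24 CPM in controls to 2.91, 3.70 and 2.78 CPM in KO. The groups were well apart, and control pool 3 was again the lowest control. The log2 FC was -1.39 ± 0.20 (SE, adjusted p = 0.0155). Without control pool 1 (adjusted p = 0.0732), control pool 2 (0.0609), KO pool 1 (0.112), KO pool 3 (0.0835) or both libraries numbered 2 (0.0723) it was not called. Tnfsf11 (ENSMUSG00000022015) fell from 27.4, 27.9 and 26.3 CPM in controls to 17.1, 20.7 and 17.9 CPM in KO. The groups did not overlap, and the control libraries lay close together (SD 0.804 CPM). The log2 FC was -0.55 ± 0.09 (SE, adjusted p = 0.0263), with no call left on omitting control pool 1 (0.0870), control pool 2 (0.116), KO pool 1 (0.166), KO pool 3 (0.108) or both libraries numbered 2 (0.110).

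Lta (ENSMUSG00000024402) differed by less than the spread between libraries. It stood at 68.0, 77.0 and 69.7 CPM in controls and 68.3, 79.0 and 69.5 CPM in KO. Number 2 was the highest library in both groups, and the same-numbered libraries nearly matched. The log2 FC was 0.01 ± 0.08 (SE, adjusted p = 0.964). The exact 95% counting interval of the control to KO ratio was 0.949 to 1.03, which leaves out the spread between pools.

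**Figure D3:**
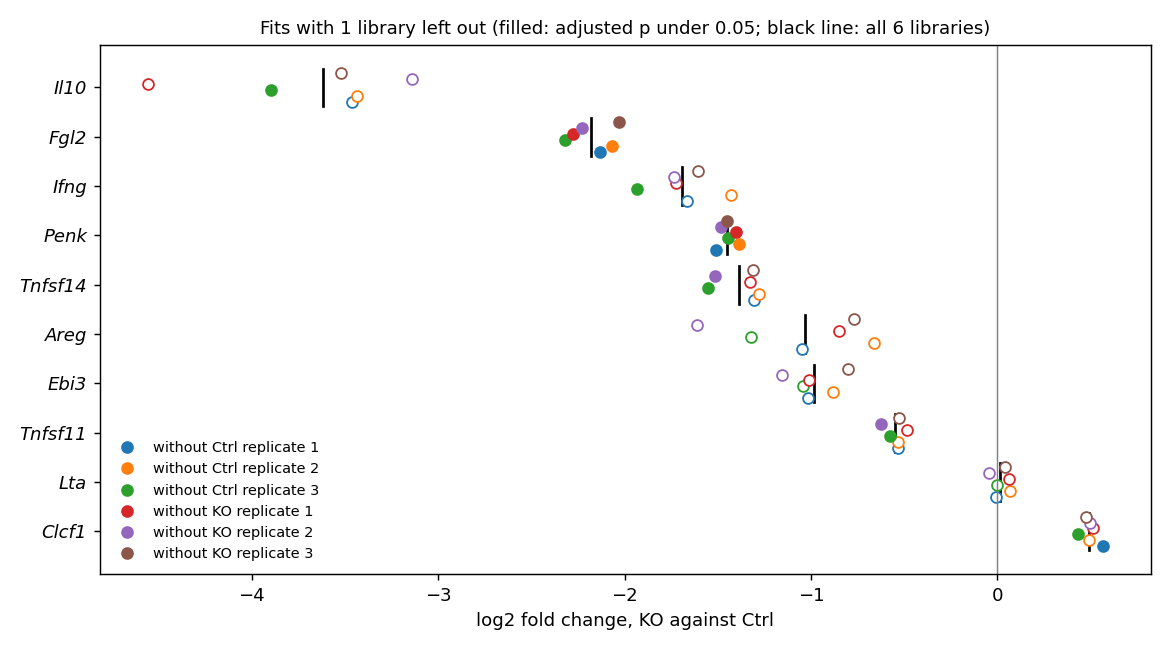
Log2 fold change, KO against control (x axis), of the 10 genes in 6 fits that each leave out 1 library (colours); black lines mark all 6 libraries and filled points an adjusted p under 0.05. Fgl2 and Penk are filled in all 6 fits, while Il10 is filled in 1 and spreads from -4.56 to -3.14.

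In order of fitted change, the ranges of ± 1 SE of neighbours overlapped from Fgl2 through Ifng, Penk, Tnfsf14 and Areg to Ebi3, so adjacent genes in that stretch are not separated. Farther apart in the order, the range of Fgl2 did not overlap those of Penk, Tnfsf14, Areg and Ebi3. Nor did the ranges of Ifng, Penk and Tnfsf14 overlap that of Ebi3. Those of Il10 and Fgl2, Ebi3 and Tnfsf11, Tnfsf11 and Lta, and Lta and Clcf1 did not overlap. Overlap of these ranges is a description and not a test of difference. For the members, the order of the libraries was partly shared between the groups, and it was not compared with that of all genes. Control pool 2 was the highest control for 9 of the 10 members and control pool 3 the lowest for 8. KO pool 2 was the highest KO library for 7, while KO pool 3 was the lowest for 5 and KO pool 1 the lowest for 4. Number 2 was also the pair with the most macrophage marker RNA, and the part of that RNA in the order was not tested. In all 3 same-numbered pairs, 8 members were lower in KO and 1, Clcf1, was higher. The share of all tested genes with the same direction in all 3 pairs was not computed, so nothing is read from this count.

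Of 15 other TNF superfamily ligands, 8 were tested and 0 were called in either direction by edgeR, with or without the block, or by DESeq2 or limma-voom; 1 had an unadjusted edgeR p under 0.05. Their median log2 FC was -0.12. Ltb, which forms membrane lymphotoxin with Lta, stood at 1166 to 1205 CPM in controls and 986 to 1262 CPM in KO (-0.11 ± 0.10, adjusted p = 0.697), and Tnfsf8, the CD30 ligand, at 0.02 ± 0.09 (adjusted p = 0.952). Tnf, which lies next to Lta on chromosome 17, was at -0.07 ± 0.21 (adjusted p = 0.929). Tnfsf9, the 4-1BB ligand and the nearest tested gene on 1 side of Tnfsf14, was at -0.13 ± 0.19 (adjusted p = 0.828), and on the other side the complement gene C3 was at 0.34 ± 0.22 (adjusted p = 0.558). Whether Tnfsf14 and Tnfsf11 differed from these ligands was not tested.

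Other T cell cytokines were largely below the filter. Of 23 listed, 5 were tested, and Csf1, the macrophage growth factor, was the 1 called, lower in KO. It stood at 19.9, 16.2 and 14.8 CPM in controls and 6.96, 9.05 and 5.40 CPM in KO (-1.25 ± 0.19, adjusted p = 0.0186), without overlap, and was not called without control pool 1, control pool 2, KO pool 1 or KO pool 3. Tgfb1, the other main suppressive cytokine of Treg, was at 0.01 ± 0.07 (adjusted p = 0.969), and was named after its values were seen. Il4, Il5, Il13, Il17a and Il22 had between 1 and 11 counts over all 6 libraries, and Il3, Il9, Il21 and Il24 had 0; they too were named after their values were seen. Of 9 other EGF receptor ligands and opioid precursors, 3 were tested, and 0 were called by edgeR, DESeq2 or limma-voom or had an unadjusted edgeR p under 0.05; the 2 most abundant were Pomc, another opioid precursor, at -0.68 ± 0.32 (adjusted p = 0.431), and Egf at 0.39 ± 0.26 (adjusted p = 0.589).

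Processing enzymes and receptors held few calls. Of 11 processing and shedding enzymes, 8 were tested, 1 was lower and 0 higher: the membrane protease Mmp14 fell from 11.2 ± 1.00 to 5.77 ± 0.46 CPM (SD, n = 3 each; log2 FC -0.96 ± 0.13, adjusted p = 0.00991), and was not called without KO pool 1, KO pool 2 or both libraries numbered 2. Of 22 receptors of the members, 15 were tested, 1 was lower and 0 higher, with a median of 0.08. Tnfrsf1b, the TNF receptor 2 that also binds lymphotoxin alpha, fell by 0.51 on the log2 scale (SE 0.08, adjusted p = 0.0200), and was not called without control pool 1, control pool 2, any KO library or both libraries numbered 2. With the block Il10ra, the ligand-binding chain of the IL-10 receptor, was also lower (-0.26 ± 0.05, adjusted p = 0.0174), named after its values were seen.

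Transcription factors known to act on these genes included several that fell. Of 24 tested, 5 were lower, 0 higher and 19 did not pass, with a median of -0.20; with the block 10 were lower. Maf, which drives Il10 in T cells, fell by 1.19 on the log2 scale (SE 0.13, adjusted p = 0.00544). Tbx21, the type 1 regulator T-bet that drives Ifng, had a log2 FC of -1.99 ± 0.24 (adjusted p = 0.00798), from 6.02 to 1.49 CPM. Nfil3, another regulator of Il10, was at -1.12 ± 0.18 (adjusted p = 0.0200), and Batf, an AP-1 family factor, at -0.62 ± 0.09 (adjusted p = 0.0152). The fifth was Prdm1, the factor Blimp-1 (-0.93 ± 0.16, adjusted p = 0.0275), named after its values were seen. The number lower was 2 or 3 without control pool 1, control pool 2 or any KO library, and 2 without both libraries numbered 2. The part of these factors in the members' changes was not tested.

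Genes known to respond to 2 of these cytokines were mostly not called. Of 10 IL-10 and STAT3 target genes 1 was lower (Batf) and 0 higher, with a median of -0.10, and 0 were called without control pool 2, any KO library or both libraries numbered 2. Of 19 interferon gamma target genes 1 was lower and 0 higher, with a median of -0.20. Of the 19, 17 had a fitted value below 0, as did 6140 of the 11990 tested genes. The 19 summed to 5034 CPM in control pool 1, but to 3830 and 3935 CPM in control pools 2 and 3. In KO pools 1 to 3 they summed to 3742, 3970 and 3713 CPM, so control pool 1 stood apart from all other libraries. With the block 2 were lower, the added gene being the guanylate-binding protein Gbp3 (-0.45 ± 0.08, adjusted p = 0.00565, named after its values were seen), and DESeq2 also called 2. The 1 called without the block was Cxcl10, a chemokine ligand of Cxcr3, at 4.49, 3.64 and 2.01 CPM in controls and 0.717, 1.07 and 0.525 CPM in KO (-2.12 ± 0.38, adjusted p = 0.0356); it was not called by limma-voom, without control pool 1, control pool 2 or any KO library, or without both libraries numbered 2. These target lists were measured in the Treg themselves and not in the cells on which the ligands act.

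Markers of effector Treg were lower too. Of 14, 10 were lower and 0 higher, with a median of -1.51, and the 14 summed to 718 to 907 CPM in controls and 419 to 498 CPM in KO. The inhibitory receptor Tigit (-2.94 ± 0.17), the chemokine receptors Cxcr3 (-2.71 ± 0.15) and Ccr2 (-2.92 ± 0.22) and the cytotoxic protease Gzmb (-2.72 ± 0.22) had the smallest adjusted p-values, between 0.000434 and 0.00141. With the block 14 of the 14 were lower and by DESeq2 13, and without KO pool 1 or KO pool 3, 6 were. Il1rl1, called lower among the natural killer markers, is also 1 of these 14. Of 10 central Treg markers 0 were called by edgeR or limma-voom and 1, higher, by DESeq2, and 3 were higher at an unadjusted edgeR p under 0.05; their median was 0.11, and Klf2 was at -0.03 ± 0.26 (adjusted p = 0.980). With the block, Bach2, Satb1 and Bcl2, named after their values were seen, were called higher. The part of effector Treg numbers in the members' changes was not tested.

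**Figure D4:**
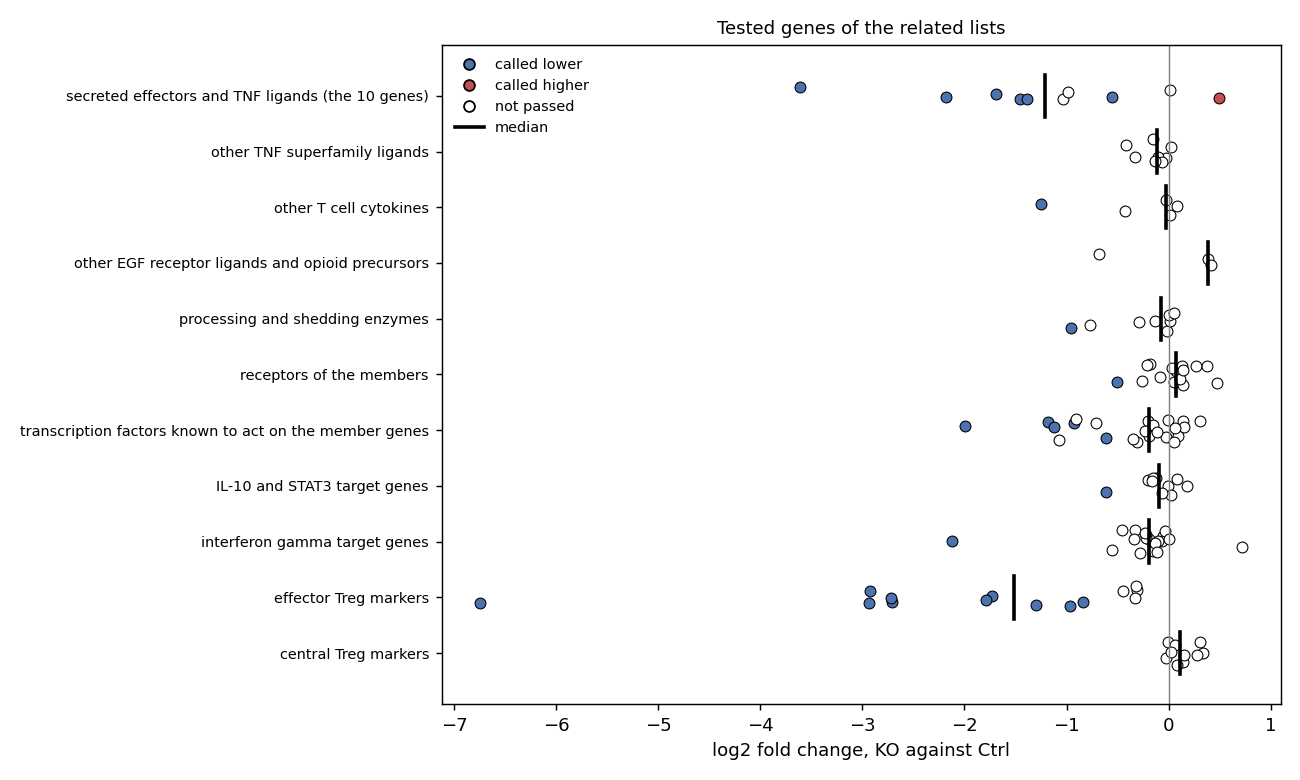
Log2 fold change, KO against control (x axis), of every tested gene of the 10 members and of 10 related lists (rows); blue was called lower, red higher, white did not pass, and black lines are medians. The members (median -1.21) and effector Treg markers (median -1.51) lie to the left, and the other lists have medians between -0.20 and 0.39; the point farthest left is Klrg1, with 0 counts in KO pools 2 and 3.

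Each member was compared with every tested gene with a mean of at least 5 CPM, the other members left out. Likeness of pattern was measured as the root mean square difference between their 6 centred log2 CPM values. It is a description over 6 libraries that is largely set by the KO against control change. Nearest to Il10 were Tox2 (0.55), Tigit (0.65) and Ccr2 (0.80), and nearest to Fgl2 were Myo1f (0.20), Adam8 (0.21) and S100a6 (0.25). The closest to Penk were Chst2 (0.10), Cobll1 (0.12) and Actg2 (0.13). Ifng lay nearest to Ccr4 (0.12), St14 (0.13) and Nav2 (0.15), Tnfsf14 nearest to Maf (0.13), and Clcf1 nearest to Hid1, Col20a1 and Nup210l (0.05 to 0.06).

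Genes next to the members were mostly not called. The nearest tested gene on each side of the 10 members gave 20 genes, of which 1 was lower and 0 higher. The 1 was Epsti1, an interferon-induced gene next to Tnfsf11 (181 to 137 CPM, log2 FC -0.40 ± 0.07, adjusted p = 0.0229). Beside Il10, Fcmr was at -0.22 ± 0.29 (adjusted p = 0.801) and Mapkapk2 at -0.05 ± 0.11 (adjusted p = 0.884). Beside Clcf1, Rad9a was at 0.14 ± 0.08 (adjusted p = 0.515) and Pold4 at 0.02 ± 0.08 (adjusted p = 0.964).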

How the data were processed

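The authors deposited 1 table of read counts per Ensembl gene, with 1 column per RNA library, described as HTSeq counts per the labels. Tools listed in the submitters' processing notes, without roles, are bedtools, SAMtools, Bowtie2, HISAT2, Cufflinks and DESeq2, and the listed builds are mm9 and mm10. Versions, annotation and strand setting: not given in the sources used here. Reads of overlapping genes may be shared. Symbols matched 22522 of 22553 IDs. ATAC-seq libraries were not analysed here.

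Counts were fitted over all genes with edgeR 4.0.16 in R 4.3.3: filterByExpr (minimum count 10, minimum total 15) left 11990 genes, scaled by TMM and tested by the quasi-likelihood F test with Benjamini-Hochberg adjustment over all of them. SE come from the F statistic. Libraries of 1 group gave chi-square values of 8.75 to 27.4 per degree of freedom, so none was a copy of another. Deviations from the group means of same-numbered libraries correlated at 0.30, 0.58 and 0.54 over genes. Libraries of different numbers gave -0.55 to 0.02. Deviations in a group cancel out for each gene, so these values depend on each other. Same-numbered values were the higher, so the numbers were taken to pair libraries. This rests on the data, since the labels do not say what a number means. For that reason the main fit has no block. Its p-values therefore leave the pairing out, and the block fit is given beside it. Alternatives were RLE factors, library totals only, no filter, DESeq2 1.42.0, limma-voom (limma 3.58.1), the replicate block, leaving out each library and leaving out both libraries numbered 2.

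Members and lists were chosen with earlier results of these data known. Named genes were the members; up to 4 called genes per list by adjusted p, or the 2 most abundant; the 3 nearest profiles; and the nearest tested neighbours in RefSeq order (GRCm38.p6). Neighbours are given by name only, because the build of the count table is not settled. Results for some genes the rule names are not reported here.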

Additional observations from a re-analysis of the deposited data

How the results depend on the processing

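Over all genes, 167 were called lower and 12 higher; DESeq2 called 263 and 72, limma-voom 3 higher, and the replicate block 526 lower and 236 higher. Leaving out 1 library gave 26 to 166 lower and 0 to 10 higher genes, and leaving out both libraries numbered 2 gave 54 and 0. Of the members, 6 lower and 1 higher, the fits with 1 library left out called 2 to 6 lower and 0 to 1 higher, and without both libraries numbered 2 the numbers were 2 and 0. With the replicate block 8 members were lower and 1 higher, the added 2 being Ebi3 and Areg; it changed the call of no other member. Of 130 member values under 13 alternatives, 95 kept direction and side of the threshold, 28 lost the call, 4 gained one and 3 changed sign. The 3 were Lta, at -0.0093 without control replicate 1, -0.0038 without control replicate 3 and -0.045 without KO replicate 2, in a range of -0.045 to 0.069 over the fits with 1 library left out. RLE factors, library totals only and no filter changed 1 member call (Ebi3, called with no filter). Fitted changes of Il10, Areg and Ifng rest on few counts, and cytokines with 0 to 19 counts over all libraries were too shallow to compare. Fits with libraries left out also hold fewer libraries, and the cause of the lost calls was not tested.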
